A study of Homo sapiens with 4 samples.

Results

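The genes described here are the SR proteins and hnRNP proteins, the main regulators of splice site choice, with the scaffold proteins and protein kinases that work with SR proteins. They were taken from gene counts of MDA-MB-231 cells, an established human line of triple-negative breast cancer origin. Members were all genes whose symbol is SRSF or HNRNP followed by a number or letter, plus TRA2A, TRA2B, SRRM1, SRRM2, SON, CLK1 to CLK4, SRPK1 and SRPK2, provided their 4 counts summed to at least 40. Of 20263 gene IDs in the table, 48 met the naming rule and 43 also met the count minimum. Of the other 5, HNRNPCL1, HNRNPCL2, HNRNPCL3 and HNRNPCL4 had 0 counts in every library. SRSF12 had 0 and 3 counts in the RB-1 libraries, and 0 and 0 in the DMSO libraries. Membership rested on names and on the summed count, not on the difference between treatments.

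One group held 2 libraries of cells treated for 24 h with RB-1, a compound known here by its code name that the series title places among the derivatives of ribociclib, an inhibitor of CDK4 and CDK6. The other held 2 libraries of cells treated with the solvent DMSO over the same time. Both groups were the same line, with no engineered allele named in the labels, in serum-supplemented DMEM, and the labels give no dose and are silent on whether a group's libraries were separate cultures. P-values therefore reflect the variation among these 4 libraries, which could be technical, in a single cell line.

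SR proteins carry RNA recognition motifs and a tail rich in arginine and serine, and they bind exonic sequences to help the spliceosome recognise exons. hnRNP proteins bind nascent transcripts more broadly, and many of them repress the splice sites near which they bind. The balance of both families sets inclusion of many alternative exons. Kinases of the CLK and SRPK families phosphorylate the arginine-serine tails, which governs where SR proteins reside and how they assemble, and the large scaffolds SON and SRRM2 form the core of nuclear speckles. Many genes of both families limit their own output through unproductive transcripts that carry an early stop codon or keep an intron.

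Library totals ran from 34122874 to 37754168 counts, and members took 0.936% and 0.988% of the counts in the RB-1 libraries, against 1.27% and 1.09% in the DMSO libraries. The share of counts on genes encoded by the mitochondrial genome was 4.25% and 6.46% in the RB-1 libraries and 8.68% and 21.7% in the DMSO libraries, so DMSO replicate 2 stood apart. The part of this difference in the results below was not tested. Of 7 markers of the MDA-MB-231 line, 6 had a mean of at least 1 CPM, the exception being SPARC. Of 7 luminal markers 5 had a mean of at least 1 CPM, with a summed CPM of 455 and 377 in the RB-1 libraries and 286 and 375 in the DMSO libraries, most of it from the keratin gene KRT19. The hormone receptor gene ESR1 and the cadherin gene CDH1 had at most 23 counts in any library, and CD3E and DCN, which mark T cells and fibroblasts, had 0 counts in all. Summed CPM of the leukocyte list was 201 to 220 in the RB-1 libraries and 160 to 340 in the DMSO libraries. Nearly all of it was from CD68. The fibroblast list was not empty, with a summed CPM of 5.19 and 4.83 in the RB-1 libraries and 7.77 and 8.21 in the DMSO libraries. Nearly all of that came from COL1A1. For the endothelial list the sum was 8.43 and 13.5 in the RB-1 libraries and 8.17 and 6.96 in the DMSO libraries, mostly from KDR.

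Promoter sequences are shown for 6 called members for which RefSeq lists 1 promoter each. They are the 2 that were higher with RB-1 and, of those that were lower, the 4 with the smallest adjusted p (test given below). Each is the run of 250 bases before the transcription start in RefSeq (build GRCh38.p14), written 5′ to 3′ on the gene's own strand. Capitals mark matches, on either strand, to 5 short motifs searched by their letters: the CCAAT box (CCAAT), the GC box (GGGCGG), an ETS site (CCGGAAG), an E2F site (TTTCGCGC) and the TATA box (TATAAA). The regions are chr16:2752388-2752637 on the plus strand for SRRM2, chr21:33542788-33543037 on the plus strand for SON, chr7:26200747-26200996 on the minus strand for HNRNPA2B1, chr1:23344285-23344534 on the minus strand for HNRNPR, chr12:120469749-120469998 on the minus strand for SRSF9 and chr5:137754364-137754613 on the minus strand for HNRNPA0.
SRRM2: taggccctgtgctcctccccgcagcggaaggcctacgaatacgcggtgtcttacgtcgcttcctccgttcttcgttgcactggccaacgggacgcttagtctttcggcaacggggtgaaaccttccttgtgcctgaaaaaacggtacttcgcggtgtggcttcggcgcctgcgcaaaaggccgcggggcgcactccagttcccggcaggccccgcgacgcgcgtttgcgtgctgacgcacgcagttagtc
SON: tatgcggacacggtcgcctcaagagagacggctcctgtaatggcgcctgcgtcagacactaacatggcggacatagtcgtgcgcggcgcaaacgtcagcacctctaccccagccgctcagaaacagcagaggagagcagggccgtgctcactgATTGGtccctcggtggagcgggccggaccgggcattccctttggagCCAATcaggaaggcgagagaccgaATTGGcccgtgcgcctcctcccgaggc
HNRNPA2B1: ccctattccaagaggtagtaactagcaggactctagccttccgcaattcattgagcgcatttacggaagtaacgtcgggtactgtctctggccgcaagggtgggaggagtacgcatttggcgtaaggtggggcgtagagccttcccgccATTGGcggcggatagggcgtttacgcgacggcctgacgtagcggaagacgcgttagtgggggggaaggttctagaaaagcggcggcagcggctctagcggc
HNRNPR: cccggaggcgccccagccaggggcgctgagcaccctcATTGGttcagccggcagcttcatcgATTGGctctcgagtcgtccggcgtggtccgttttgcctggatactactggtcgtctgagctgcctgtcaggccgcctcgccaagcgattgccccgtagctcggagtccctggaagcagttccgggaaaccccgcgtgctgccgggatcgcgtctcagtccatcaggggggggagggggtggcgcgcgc
SRSF9: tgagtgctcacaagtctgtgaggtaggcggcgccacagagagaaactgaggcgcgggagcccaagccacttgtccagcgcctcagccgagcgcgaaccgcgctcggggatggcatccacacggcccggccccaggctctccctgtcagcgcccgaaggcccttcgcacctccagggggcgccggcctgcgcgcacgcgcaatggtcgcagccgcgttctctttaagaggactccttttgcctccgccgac
HNRNPA0: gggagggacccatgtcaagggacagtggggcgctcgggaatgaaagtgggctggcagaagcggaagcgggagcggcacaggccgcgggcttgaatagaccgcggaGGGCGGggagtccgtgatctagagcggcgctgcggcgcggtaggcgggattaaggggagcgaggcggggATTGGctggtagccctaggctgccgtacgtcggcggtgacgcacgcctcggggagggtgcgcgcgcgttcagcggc

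In these windows SON held 3 CCAAT matches and HNRNPR held 2, HNRNPA2B1 held 1, HNRNPA0 held 1 CCAAT and 1 GC box match, and SRRM2 and SRSF9 held no match to any of the 5 motifs. The windows of CLK4, HNRNPA1L2, SRSF4 and TRA2B, lower members with 1 promoter that are not shown, each held the GC box. Over the 40 members with a listed promoter, 18 held the CCAAT box, against 33.0% of 27305 genes with a listed promoter, and 25 (62.5%) held the GC box, against 42.3%. The ETS site was found in 12.5% of members, against 8.82% of all, the TATA box in 12.5%, against 11.1%, and the E2F site in 0 of 40 members, against 0.469% of all. Among the members that fell with RB-1, 38.5% of 13 with a promoter held the CCAAT box and 53.8% the GC box, compared with 48.0% and 68.0% of the 25 whose change did not pass the test. A match describes the letters of the window and is not evidence that a factor binds there. None of the 5 motifs was held by all the members called in the same direction.

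Transcripts of 14 members were lower and those of 2 higher in RB-1 than in DMSO, and the other 27 did not pass the test. The falls included every scaffold and Tra2 gene, SRRM2, SON, SRRM1, TRA2A and TRA2B, the hnRNP genes HNRNPH1, HNRNPH3, HNRNPR, HNRNPA2B1 and HNRNPA1L2, the SR protein genes SRSF11, SRSF7 and SRSF4, and the kinase gene CLK4. The rises were SRSF9 and HNRNPA0. Most of the classical SR protein genes, SRSF1, SRSF2, SRSF3, SRSF5 and SRSF6 among them, did not pass. Calls needed an adjusted p under 0.05 in edgeR's quasi-likelihood test, with Benjamini-Hochberg adjustment over all 13612 genes tested, of which 12.8% were called higher and 16.1% lower. The members called lower were 32.6% of the 43, those called higher 4.65%, and those called in either direction 37.2%, against 28.8% of all genes. All 43 members passed the filter on low counts.

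The median log2 fold change of the members was -0.38, against 0.01 over all genes tested, with 33 members below 0 and 10 above. In 33 members the RB-1 and DMSO libraries did not overlap, 26 of them lower and 7 higher with RB-1, while the groups did not overlap in 69.7% of all genes. Summed over the 43 members, expression was 8950 and 9007 CPM in the RB-1 libraries and 12670 and 12520 CPM in the DMSO libraries, where CPM scales counts to the TMM-adjusted size of each library. The sums of the 11 SRSF genes overlapped, with 1684 and 1507 CPM in the RB-1 libraries and 1646 and 1564 CPM in the DMSO libraries. That of the 21 hnRNP genes was 6349 and 6258 CPM with RB-1 and 8742 and 8330 CPM with DMSO. CPM is relative to the rest of each library, and in bulk RNA fewer cells of a type and less RNA per cell cannot be told apart.

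**Figure D1:**
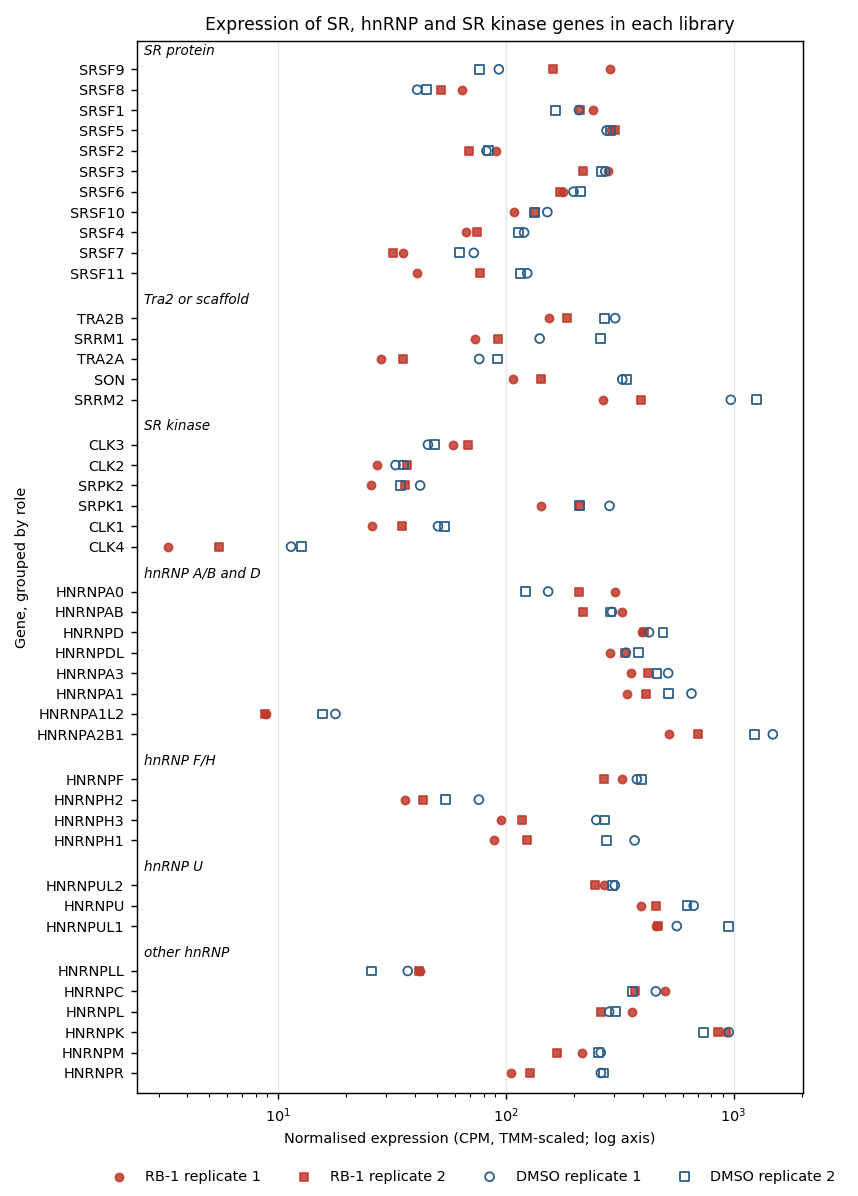
Expression of the 43 genes in each library, as CPM on a log axis, grouped by role. Filled red symbols are the RB-1 libraries and open blue symbols the DMSO libraries (circle replicate 1, square replicate 2), and the RB-1 symbols of all 5 Tra2 and scaffold genes lie left of the DMSO symbols.

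The direction of the balance over all genes moved with the scaling. With TMM scaling RB-1 had 1737 higher and 2189 lower genes, with upper-quartile factors 2171 and 1830, and with library totals alone 2059 and 1400. These scalings shifted the median log2 fold change of all genes by 0.105 and 0.193. The member counts moved less in direction: 2 were higher and 10 lower with upper-quartile factors, and 2 higher and 9 lower with library totals. The member median was then -0.28 and -0.18, against 0.12 and 0.21 over all genes.

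All 5 scaffold and Tra2 genes, grouped by role here, were called lower, against 16.1% of all genes, with a median log2 fold change of -1.40. The calls for SRRM1, TRA2A and TRA2B were less stable than those for SRRM2 and SON, as given below. SRRM2, whose very large protein is a core component of nuclear speckles, had 269 and 391 CPM in the RB-1 libraries, against 973 and 1265 CPM in the DMSO libraries. Both RB-1 libraries lay far below both DMSO libraries, with RB-1 replicate 1 the lowest. It was 3.39-fold lower in RB-1 (log2 fold change -1.76 ± 0.264 SE, adjusted p = 0.0015 by edgeR's quasi-likelihood test, as for all adjusted p below). SON, the other large speckle scaffold, which also aids splicing of weak introns, had 107 and 143 CPM in the RB-1 libraries and 325 and 339.9 CPM in the DMSO libraries. The DMSO libraries nearly coincided and the RB-1 libraries were both far lower, which gave a log2 fold change of -1.41 ± 0.243 (adjusted p = 0.00304). With an offset for transcript length and GC content the value was -1.24 (adjusted p = 0.00698) for SRRM2 and -0.77 (adjusted p = 0.0173) for SON.

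SRRM1, a coactivator that bridges SR proteins and the spliceosome on exons, had 73.2 and 92.9 CPM in the RB-1 libraries and 141 and 262 CPM in the DMSO libraries. DMSO replicate 2 stood well above the other 3, and the log2 fold change was -1.28 ± 0.313 (adjusted p = 0.0145). Without DMSO replicate 2 it was -0.74 (adjusted p = 0.184), and without RB-1 replicate 1 it was -1.12 (adjusted p = 0.141). TRA2A and TRA2B encode paired Tra2 proteins that bind GAA-rich exonic enhancers. TRA2A had 28.5 and 35.3 CPM in the RB-1 libraries and 76.5 and 91.9 CPM in the DMSO libraries, a 2.64-fold lower level (log2 fold change -1.40 ± 0.272, adjusted p = 0.00506), and without DMSO replicate 2 the adjusted p was 0.0546 at -1.24. Its paralog TRA2B was more abundant per kilobase, and had 155.5 and 187 CPM in the RB-1 libraries and 302 and 271 CPM in the DMSO libraries. TRA2B fell 1.68-fold (log2 fold change -0.75 ± 0.232, adjusted p = 0.0352), a call that did not pass without RB-1 replicate 1 (-0.61, adjusted p = 0.153), without DMSO replicate 1 (-0.67, adjusted p = 0.169), without DMSO replicate 2 (-0.80, adjusted p = 0.116), with upper-quartile factors (-0.64, adjusted p = 0.0625) or with library totals (-0.55, adjusted p = 0.135). Per kilobase of transcript, TRA2B made up 39.8% of the summed level of the 5 genes in RB-1 and 27.7% in DMSO, and SRRM2 24.3% in RB-1 and 34.1% in DMSO.

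Of the 11 SR protein genes tested, 1 rose, 3 fell and 7 did not pass, and their median log2 fold change was -0.10. The called shares were 9.09% higher and 27.3% lower, against 12.8% and 16.1% of all genes. With library totals alone 0 of these genes were called lower. SRSF9, a small SR protein with a short arginine-serine tail, had 286 and 161 CPM in the RB-1 libraries, against 93.4 and 76.7 CPM in the DMSO libraries. Both RB-1 libraries were above both DMSO libraries, but they were also far from each other, with replicate 1 the higher. The rise was 2.63-fold (log2 fold change 1.39 ± 0.301, adjusted p = 0.00825). Without RB-1 replicate 1 it was 0.93 (adjusted p = 0.0532), and with the length and GC offset it was 0.72 (adjusted p = 0.0395). The value for SRSF9 is uncertain, because 46.2% of its exon bases overlap other genes on the opposite strand, mostly GATC, and the sources used here do not state whether counting used strand. GATC itself had 102 CPM in RB-1 and 84.5 CPM in DMSO on average and did not pass (log2 fold change 0.28, adjusted p = 0.403).

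SRSF11, a divergent member of the family that binds spliceosomal proteins, had 40.8 and 77.4 CPM in the RB-1 libraries and 124 and 117 CPM in the DMSO libraries. In CPM the 2 RB-1 libraries differed nearly as much from each other as replicate 2 did from DMSO, and as a ratio they differed more. Its log2 fold change was -1.03 ± 0.313 (adjusted p = 0.0331), and the value was -0.63 (adjusted p = 0.14) without RB-1 replicate 1 and -1.56 (adjusted p = 0.00868) without RB-1 replicate 2. It did not pass without DMSO replicate 1 (-0.98, adjusted p = 0.111) or DMSO replicate 2 (-1.05, adjusted p = 0.103), with upper-quartile factors (-0.92, adjusted p = 0.0572) or with library totals (-0.82, adjusted p = 0.0998), and was -0.67 (adjusted p = 0.0464) with the length and GC offset. SRSF7, the SR protein with a zinc knuckle that also acts in mRNA export and polyadenylation site choice, had 35.6 and 32 CPM in the RB-1 libraries and 72.5 and 62.9 CPM in the DMSO libraries. Replicates lay close together in both groups, at 2-fold lower in RB-1 (log2 fold change -1.0 ± 0.266, adjusted p = 0.0188). The call for SRSF7 was lost without DMSO replicate 1 (-0.90, adjusted p = 0.14), without DMSO replicate 2 (-1.08, adjusted p = 0.0885) and with library totals (-0.82, adjusted p = 0.0697).

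SRSF4, 1 of the larger SR proteins, with a long arginine-serine tail, had 67.1 and 74.6 CPM in the RB-1 libraries and 120.5 and 114 CPM in the DMSO libraries. The groups were well separated, but the fall was modest, at 1.66-fold (log2 fold change -0.73 ± 0.240, adjusted p = 0.0436). It did not pass without RB-1 replicate 1 (-0.65, adjusted p = 0.133), without DMSO replicate 1 (-0.69, adjusted p = 0.203), without DMSO replicate 2 (-0.74, adjusted p = 0.187), with upper-quartile factors (-0.62, adjusted p = 0.0733), with library totals (-0.53, adjusted p = 0.162) or with no count filter (-0.73, adjusted p = 0.0531).

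The 7 SR protein genes that did not pass had log2 fold changes from -0.23 to 0.44. SRSF8, which arose as a retrocopy of SRSF2, had 64.3 and 52.1 CPM in the RB-1 libraries and 40.9 and 45 CPM in the DMSO libraries, which did not overlap (log2 fold change 0.44, adjusted p = 0.238). With the length and GC offset SRSF8 was called higher (0.78, adjusted p = 0.0493). SRSF1, the founding member of the family and a known oncoprotein in breast tissue, had 242 and 212 CPM in the RB-1 libraries and 209.8 and 166 CPM in the DMSO libraries (log2 fold change 0.27, adjusted p = 0.413). Those groups nearly touched, at RB-1 replicate 2 and DMSO replicate 1, and 56.6% of SRSF1 exon bases are shared with a gene on the same strand, AC015813.2, which had 54 to 116 counts per library.

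SRSF5 was nearly flat, at 288.5 and 303 CPM in the RB-1 libraries and 277 and 288 CPM in the DMSO libraries (log2 fold change 0.07, adjusted p = 0.842). SRSF2, which binds exonic enhancers through a single RNA recognition motif and is mutated in myeloid cancers, had 90.3 and 69.1 CPM in the RB-1 libraries and 82.4 and 84.3 CPM in the DMSO libraries, so that the RB-1 libraries lay on both sides of the DMSO pair (log2 fold change -0.06, adjusted p = 0.87). Its value is uncertain, since 36.7% of its exon bases overlap MFSD11 and others on the opposite strand. SRSF3, the smallest SR protein, likewise straddled the DMSO pair, at 282 and 218.5 CPM in the RB-1 libraries and 274 and 264 CPM in the DMSO libraries (log2 fold change -0.10, adjusted p = 0.767).

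SRSF6, a regulator of tau exons, had 179 and 173 CPM in the RB-1 libraries and 198.5 and 213.5 CPM in the DMSO libraries, a small separation in every library (log2 fold change -0.23, adjusted p = 0.472). SRSF10, which represses splicing when dephosphorylated, had 109 and 135 CPM in the RB-1 libraries and 152 and 134 CPM in the DMSO libraries, which overlapped (log2 fold change -0.23, adjusted p = 0.497). Their standard errors of 0.224 and 0.242 leave room for changes that 2 libraries a group could not detect. Per kilobase, SRSF9 accounted for 26.0% of the summed level of the SRSF genes in RB-1 and 11% in DMSO, the largest share in RB-1. In DMSO the largest was that of SRSF1, with 20.9% in RB-1 and 19.3% in DMSO.

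**Figure D2:**
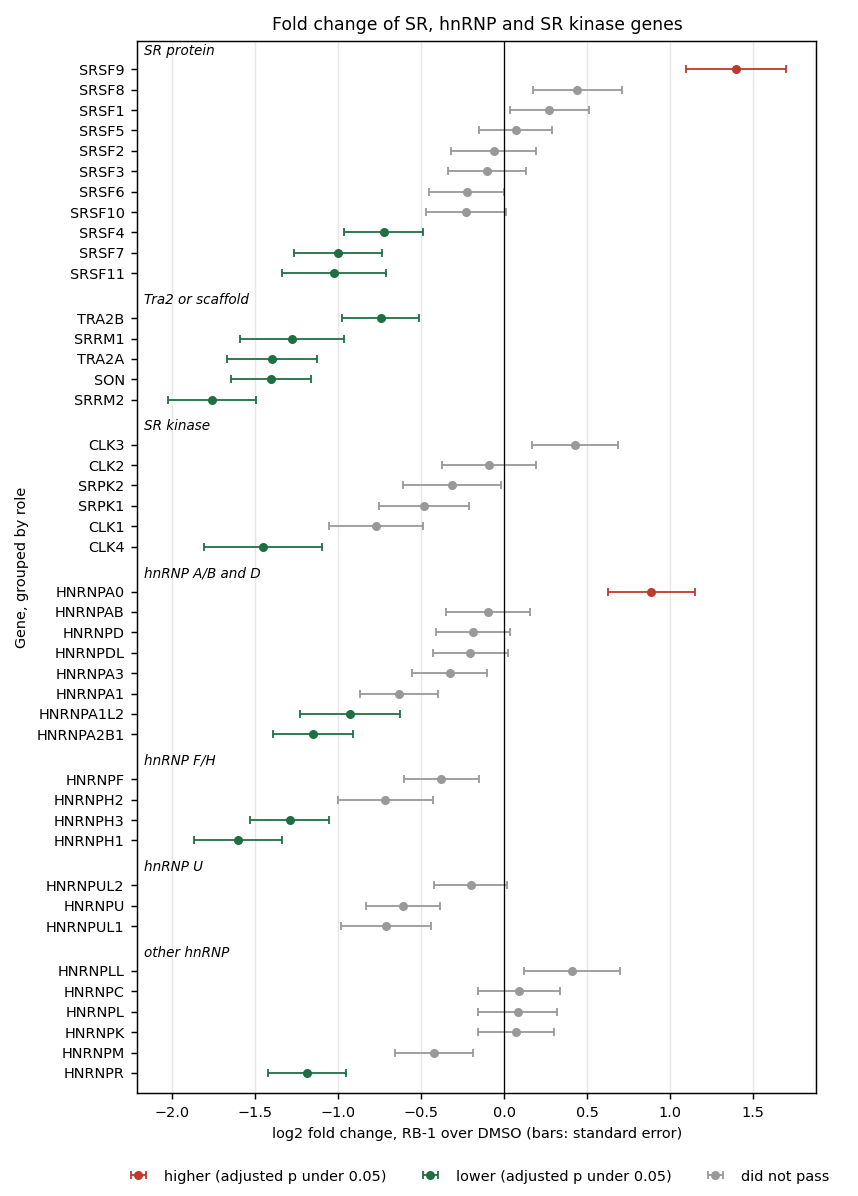
Log2 fold change of each of the 43 genes, RB-1 over DMSO, with its standard error as the bar, grouped by role. Red marks the 2 genes called higher and green the 14 called lower, and the gray points are the 27 that did not pass.

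Among the 6 kinases of SR proteins 1 fell and 5 did not pass, with a median log2 fold change of -0.40. The 16.7% called lower was near the 16.1% of all genes. CLK4, a dual-specificity kinase of the nucleus, was the least abundant member in CPM and per kilobase, at 3.29 and 5.50 CPM in the RB-1 libraries and 11.4 and 12.7 CPM in the DMSO libraries. All the RB-1 values were below all the DMSO values, and it was 2.74-fold lower (log2 fold change -1.46 ± 0.354, adjusted p = 0.0133). Without RB-1 replicate 1 it was -1.13 (adjusted p = 0.071) and without DMSO replicate 2 it was -1.36 (adjusted p = 0.0672). CLK1, whose own transcript keeps introns in the nucleus until splicing is needed, had 25.9 and 35.2 CPM in the RB-1 libraries and 50.5 and 54.0 CPM in the DMSO libraries. The groups of CLK1 did not overlap, yet the change did not pass (log2 fold change -0.77 ± 0.282, adjusted p = 0.0621). CLK1 passed without RB-1 replicate 2 (-1.01, adjusted p = 0.0337), with DESeq2 (-0.78, adjusted p = 0.0365), with the length and GC offset (-0.73, adjusted p = 0.0338) and with crossed replicate blocks (-0.79, adjusted p = 0.041).

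CLK2 had 27.4 and 36.9 CPM in the RB-1 libraries and 32.9 and 35.7 CPM in the DMSO libraries, which overlapped (log2 fold change -0.09, adjusted p = 0.833). CLK3 had 58.8 and 68.3 CPM in the RB-1 libraries and 45.6 and 48.9 CPM in the DMSO libraries, higher in both RB-1 libraries but short of the threshold (log2 fold change 0.43 ± 0.260, adjusted p = 0.237). The 4 CLK genes thus had values on both sides of 0, and the differences between them were not tested. SRPK1, the main cytoplasmic kinase that loads SR proteins for nuclear import, had 143 and 211 CPM in the RB-1 libraries and 286 and 210.2 CPM in the DMSO libraries. RB-1 replicate 2 and DMSO replicate 2 nearly coincided (log2 fold change -0.49 ± 0.271, adjusted p = 0.198). SRPK2 had 25.6 and 36.0 CPM in the RB-1 libraries and 42.2 and 34.6 CPM in the DMSO libraries, and these overlapped too (log2 fold change -0.32, adjusted p = 0.442). Per kilobase, SRPK1 was the most abundant of the 6 kinases, at 33.3% of their summed level in RB-1 and 38.5% in DMSO.

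Of 21 hnRNP genes tested, 1 rose, 5 fell and 15 did not pass, and their median log2 fold change was -0.38. The share of hnRNP genes called in either direction, 28.6%, was near the 28.8% of all genes, with 23.8% lower, against 16.1% of all. In the hnRNP F/H group, whose proteins bind runs of G, 2 of 4 (50%) fell, against 16.1% of all genes. HNRNPH1, the main H protein, had 88.9 and 124 CPM in the RB-1 libraries and 368 and 277.5 CPM in the DMSO libraries. Both RB-1 values were far below both DMSO values, and the fall was 3.04-fold (log2 fold change -1.60 ± 0.266, adjusted p = 0.00242). HNRNPH3 had 95.3 and 118 CPM in the RB-1 libraries and 250 and 271 CPM in the DMSO libraries, with tight replicates (log2 fold change -1.29 ± 0.238, adjusted p = 0.00412).

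HNRNPH2, the close paralog of HNRNPH1 on the X chromosome, had 36.2 and 43.3 CPM in the RB-1 libraries and 76.2 and 54.5 CPM in the DMSO libraries, lower in both RB-1 libraries without passing (log2 fold change -0.72, adjusted p = 0.0815). It shares 16.3% of its exon bases with the readthrough gene RPL36A-HNRNPH2, so its count is uncertain. HNRNPF had 324 and 269 CPM in the RB-1 libraries and 376.5 and 395 CPM in the DMSO libraries, a smaller separation (log2 fold change -0.38, adjusted p = 0.228). Per kilobase, HNRNPF took 53.8% of the summed level of the 4 genes in RB-1 and 37.9% in DMSO, and HNRNPH1 took 14.5% in RB-1 and 23.9% in DMSO.

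In the hnRNP A/B and D group 1 of 8 rose and 2 fell, or 12.5% and 25%, against 12.8% and 16.1% of all genes. HNRNPA2B1, an abundant protein that also sorts small RNAs into vesicles, had 519.8 and 701 CPM in the RB-1 libraries and 1487 and 1231 CPM in the DMSO libraries. Its highest RB-1 value was well under its lowest DMSO value, and it was 2.23-fold lower (log2 fold change -1.15 ± 0.242, adjusted p = 0.00707). Without RB-1 replicate 1 the value was -0.95 (adjusted p = 0.0758). Per kilobase, HNRNPA2B1 was the most abundant of the 8 genes in DMSO and second in RB-1, where its share was 20.6%, against 32.5% in DMSO. HNRNPA1L2, a retrocopy of HNRNPA1, had 8.85 and 8.76 CPM in the RB-1 libraries and 17.9 and 15.7 CPM in the DMSO libraries (log2 fold change -0.93 ± 0.299, adjusted p = 0.04). As a near-identical copy it may share reads with HNRNPA1, which was not tested, so its call is uncertain. HNRNPA1L2 did not pass without any 1 of the 4 libraries (-1.0 to -0.83, adjusted p 0.07 to 0.226), with upper-quartile factors (-0.82, adjusted p = 0.0571), with library totals (-0.74, adjusted p = 0.128) or with a replicate block (-0.93, adjusted p = 0.0588).

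HNRNPA0, a member of the A/B group made from a gene with a single exon and known to bind AU-rich elements of inflammatory mRNAs, had 301.5 and 209 CPM in the RB-1 libraries and 154 and 122.5 CPM in the DMSO libraries. It was the only hnRNP gene called higher, at 1.85-fold (log2 fold change 0.89 ± 0.262, adjusted p = 0.029). The RB-1 libraries were above the DMSO libraries, with replicate 1 higher than replicate 2 in both groups. The call was lost without RB-1 replicate 1 (0.60, adjusted p = 0.16), without DMSO replicate 1 (1.06, adjusted p = 0.0553) and without DMSO replicate 2 (0.75, adjusted p = 0.177). Its principal transcript of 8726 bases is the third longest among the members, and with the length and GC offset its value was 1.92 (adjusted p = 0.0223).

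HNRNPA1, the best studied repressor of the family, had 342 and 412 CPM in the RB-1 libraries and 654 and 517 CPM in the DMSO libraries. These groups did not overlap, but the change did not pass (log2 fold change -0.63 ± 0.236, adjusted p = 0.0666). HNRNPA1 has 74 named pseudogenes in the annotation, which can take or lend reads. HNRNPA3 had 356 and 423 CPM in the RB-1 libraries and 516.5 and 462 CPM in the DMSO libraries (log2 fold change -0.33, adjusted p = 0.294), and the annotation names 16 pseudogenes of it.

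HNRNPD, known as AUF1, binds AU-rich elements and promotes mRNA decay, and had 397.5 and 406 CPM in the RB-1 libraries and 426 and 490.4 CPM in the DMSO libraries (log2 fold change -0.19, adjusted p = 0.549). HNRNPDL, its relative, had 287 and 335 CPM in the RB-1 libraries and 337 and 381 CPM in the DMSO libraries (log2 fold change -0.21, adjusted p = 0.523). In both genes the RB-1 libraries were slightly below the DMSO libraries by less than the test could call. HNRNPAB had 325 and 218 CPM in the RB-1 libraries and 293 and 288 CPM in the DMSO libraries, so the RB-1 pair enclosed the DMSO pair (log2 fold change -0.10, adjusted p = 0.797).

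The 3 hnRNP U genes, whose proteins bind chromatin-associated RNA, had no call. HNRNPU had 391.5 and 456 CPM in the RB-1 libraries and 669 and 625 CPM in the DMSO libraries (log2 fold change -0.61 ± 0.222, adjusted p = 0.0615). Both RB-1 libraries of HNRNPU were below both DMSO libraries, but 15.6% of its exon bases overlap COX20 on the opposite strand, which was called higher (log2 fold change 0.88, adjusted p = 0.033). With the length and GC offset the HNRNPU value was 0.15 (adjusted p = 0.59), in the opposite direction. HNRNPUL1 had 459 and 465 CPM in the RB-1 libraries and 564 and 953 CPM in the DMSO libraries. DMSO replicate 2 set the high end, and the change did not pass with all 4 libraries (log2 fold change -0.72 ± 0.270, adjusted p = 0.0705) but did without DMSO replicate 1 (-1.05, adjusted p = 0.0237), while without DMSO replicate 2 it was -0.26 (adjusted p = 0.618). HNRNPUL2 had 269 and 248 CPM in the RB-1 libraries and 301 and 293.5 CPM in the DMSO libraries (log2 fold change -0.20, adjusted p = 0.52), and it shares 44.1% of its exon bases with the readthrough gene HNRNPUL2-BSCL2.

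Among the remaining hnRNP genes 1 of 6 fell, or 16.7%, near the 16.1% of all genes. HNRNPR, a close relative of SYNCRIP that binds mRNA in the nucleus and in axons, had 105 and 127 CPM in the RB-1 libraries and 262 and 268 CPM in the DMSO libraries. The DMSO pair was nearly identical and the RB-1 pair lay far below it, and the fall was 2.28-fold (log2 fold change -1.19 ± 0.234, adjusted p = 0.00528). HNRNPM had 217 and 168 CPM in the RB-1 libraries and 261 and 256 CPM in the DMSO libraries (log2 fold change -0.42 ± 0.235, adjusted p = 0.196). HNRNPM, which regulates splicing during epithelial-mesenchymal transition of breast cells, passed with the length and GC offset (-0.68, adjusted p = 0.0253).

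HNRNPK, which binds runs of C and was the most abundant of these 6 per kilobase, had 924 and 851 CPM in the RB-1 libraries and 953 and 737 CPM in the DMSO libraries (log2 fold change 0.07, adjusted p = 0.839). HNRNPC, which binds runs of U and keeps cryptic exons out, had 501 and 369 CPM in the RB-1 libraries and 456 and 361 CPM in the DMSO libraries (log2 fold change 0.09, adjusted p = 0.81). HNRNPL, which binds CA repeats, had 359.9 and 263 CPM in the RB-1 libraries and 285 and 304.5 CPM in the DMSO libraries (log2 fold change 0.08, adjusted p = 0.829). All 3 overlapped between the groups. HNRNPLL, its paralog known from splicing of CD45 in T cells, had 42.0 and 41.6 CPM in the RB-1 libraries and 37.2 and 25.9 CPM in the DMSO libraries. HNRNPLL was the least abundant of these 6 per kilobase, did not pass (log2 fold change 0.41, adjusted p = 0.311), and passed with the length and GC offset (0.93, adjusted p = 0.0263).

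The calls differed in how they held when 1 library was left out, which leaves a group with 1 library that is taken to vary like the other. SRRM2, HNRNPH1, SON, HNRNPH3 and HNRNPR were called lower in each of the 4 fits with 1 library left out and in every other alternative tried. Over the alternatives the adjusted p of SRRM2 ran up to 0.0283 and that of HNRNPR up to 0.0417. TRA2A, HNRNPA2B1 and SRSF9 lost their call in 1 alternative each, all of them fits with 1 library left out. Without DMSO replicate 2, the library with the largest mitochondrial share, 6 members were lower and 1 higher. Over the 4 fits, 6 to 14 members were called lower and 0 to 2 higher, and 0 were higher without RB-1 replicate 1. Over all genes the same fits called 7.65% to 17.6% lower and 3.76% to 14% higher, so the share of all genes called varied between them as well.

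**Figure D3:**
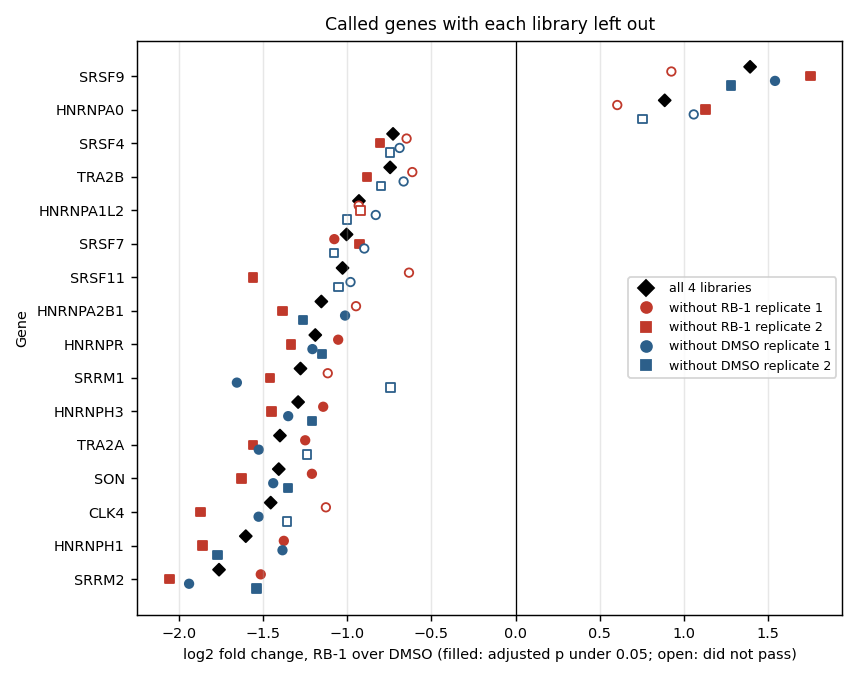
Log2 fold change of the 16 called genes with all 4 libraries (diamonds) and with each library left out (circles replicate 1, squares replicate 2, red RB-1, blue DMSO), filled where the adjusted p was under 0.05. SRRM2, HNRNPH1, SON, HNRNPH3 and HNRNPR stay filled in every fit, and both higher genes lose their fill without RB-1 replicate 1.

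Fold changes over all genes followed transcript length, and less so within the members. Spearman's correlation of log2 fold change with the length of the principal transcript was -0.132 over the 43 members and -0.373 over the 13468 tested genes with a length. These correlations run across genes of the same 4 libraries, and genes are not independent replicates. The ratio of RB-1 replicate 1 to replicate 2 also ran with length, at -0.193 over the members and -0.433 over all genes, while the ratio of the DMSO replicates gave -0.0645 and 0.107. The members called lower had a median length of 2823 bases and those that did not pass 2885 bases, against 3129.5 bases over all genes. With an offset for length and GC content fitted within each library, 16 members were called lower and 4 higher, and the 16 included all 14 of the calls made without it. The 2 further lower calls were CLK1 and HNRNPM, and the 2 further higher calls were SRSF8 and HNRNPLL.

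**Figure D4:**
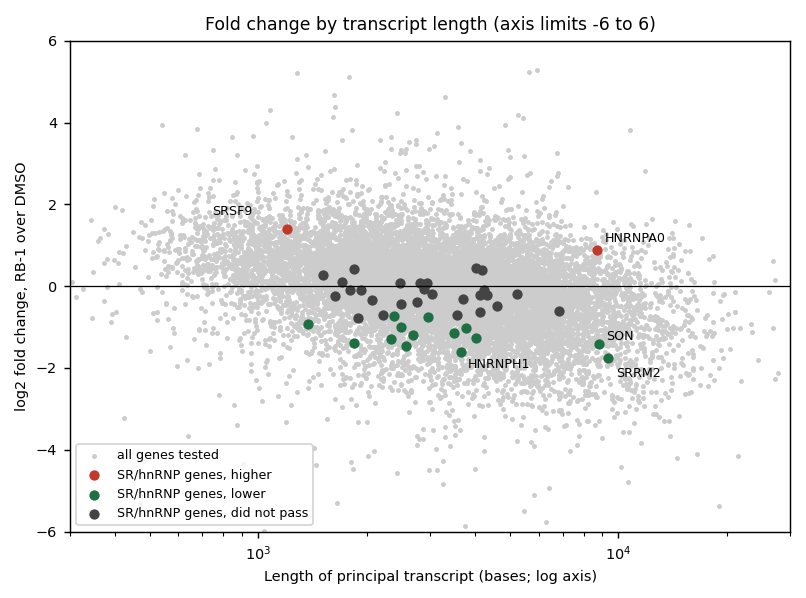
Log2 fold change, RB-1 over DMSO, against the length of the principal transcript on a log axis, for all genes tested (light gray, a few points beyond the vertical limits not drawn) and for the 43 genes described here. The genes called lower (green) lie from short to long transcripts, and HNRNPA0 (red) is higher although its transcript is 8726 bases long.

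The annotation lists at least 1 transcript of the nonsense-mediated decay type for 34 of the 43 members, or 79.1%, against 42.5% of 13567 protein-coding genes tested. A retained-intron transcript is listed for 32 members, or 74.4%, against 56.0% of the protein-coding genes. Of the members called lower 12 of 14 have a decay-type transcript and 10 a retained-intron transcript, and of those that did not pass 21 of 27 have each. HNRNPA0, HNRNPA1L2 and HNRNPH2 have 1 annotated transcript each, whereas HNRNPH1 has 50 and SRRM2 31. Members were also more abundant, with a median of 258 CPM in DMSO against 26.5 CPM over the protein-coding genes, and the part of abundance in these shares was not tested. The counts are per gene and do not separate productive from unproductive transcripts.

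Other genes of the splicing machinery were read from 9 lists that hold 156 symbols and 157 tested IDs, of which 11 (7.01%) were higher and 50 (31.8%) lower, with a median log2 fold change of -0.45, against 12.8% higher and 16.1% lower over all genes tested. The lists ran from 0 to 54.2% lower, and the tri-snRNP list (12.5%) and the list of other kinases, phosphatases and importers (18.2%) were near the share of all genes. The list of SR-related proteins and the exon junction complex held the largest number of falls, 13 of 24 with 0 rises and a median of -0.90. Its transcripts are long, with a median of 4154.5 bases, against 3129.5 bases over all genes, where fold change fell with length. The U1, U2 and PRPF19 lists below, which also held falls, have shorter medians of 2133, 2412 and 2252.5 bases. Those medians are of whole lists and do not give the length of the genes that fell. The genes called lower ran from 2645 to 7040 bases in the U1 list and from 2085 to 9720 bases in the U2 list. In the PRPF19 list they ran from 1299 to 9694 bases. The part of length in these falls was not tested. PNN, a partner of SR proteins in nuclear speckles, had 28.3 and 43.7 CPM in the RB-1 libraries and 361 and 340.4 CPM in the DMSO libraries (9.74-fold lower, adjusted p = 0.000149). BCLAF1, an arginine-serine protein that binds mRNA export and splicing factors, was 8.64-fold lower (log2 fold change -3.11 ± 0.324, adjusted p = 0.000322). Between 9 and 14 of the 24 were lower when 1 library was left out.

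The other RNA-binding splicing regulators had 12 falls among 41 IDs (29.3%, against 16.1% of all genes tested) and 0 rises. RBM25 was 6.16-fold lower (adjusted p = 0.000322), and MBNL2, a muscleblind protein, 4.56-fold lower (adjusted p = 0.000953). The falls numbered 6 without RB-1 replicate 1 and 6 without DMSO replicate 2. Among genes of nonsense-mediated decay, the pathway that removes the unproductive transcripts of SR genes, 5 of 10 fell and 0 rose, with UPF2 5.97-fold lower (adjusted p = 0.000754) and UPF3B 5.04-fold lower (adjusted p = 0.0015). The transcripts of this list are also long, with a median of 5429 bases.

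In the spliceosome itself the directions parted. The shares to set beside the counts below are 16.1% lower and 12.8% higher over all genes tested. In the U1 snRNP list 3 of 8 fell and 0 rose, LUC7L3 by 2.61-fold (adjusted p = 0.00546). In the U2 list 7 of 17 fell and 1 rose, U2SURP being 3.90-fold lower (adjusted p = 0.00198) and SF3B1, the subunit that contacts the branch site, 3.29-fold lower (adjusted p = 0.00223). Those 7 falls became 2 without RB-1 replicate 1, 3 without RB-1 replicate 2 and 2 without DMSO replicate 2. In the list of the PRPF19 complex and activation factors 6 of 16 fell and 2 rose, with CWC22 4.84-fold lower (adjusted p = 0.00083) and CRNKL1 3.49-fold lower (adjusted p = 0.0024). Both rises were lost without RB-1 replicate 1, without DMSO replicate 1 and without DMSO replicate 2.

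In the tri-snRNP list 2 of 16 fell and 1 rose, PRPF8, the central scaffold of the catalytic core, being 2.20-fold lower (adjusted p = 0.00522) and CD2BP2 1.89-fold higher (adjusted p = 0.0295). Of the other kinases, phosphatases and importers of SR proteins 2 of 11 fell and 0 rose, PRPF4B by 2.41-fold (adjusted p = 0.00897) and DYRK1A by 2.26-fold (adjusted p = 0.0187). The lone rise of the tri-snRNP list was absent without RB-1 replicate 1 and without either DMSO replicate, and its falls and those of this kinase list were both 0 without RB-1 replicate 1. The small Sm and LSm ring proteins, which coat the uridine-rich RNAs of the spliceosome, went the other way. Of these 7 of 14 (50%) were higher, against 12.8% of all genes tested, with 0 lower and a median of 0.78. SNRPE was 2.86-fold higher (adjusted p = 0.00688) and LSM5 2.73-fold higher (adjusted p = 0.00707). These have short transcripts, with a median of 1347 bases, and 5 were higher and 1 lower with the length and GC offset. Only 2 of them were higher without RB-1 replicate 1 and 1 without DMSO replicate 2.

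**Figure D5:**
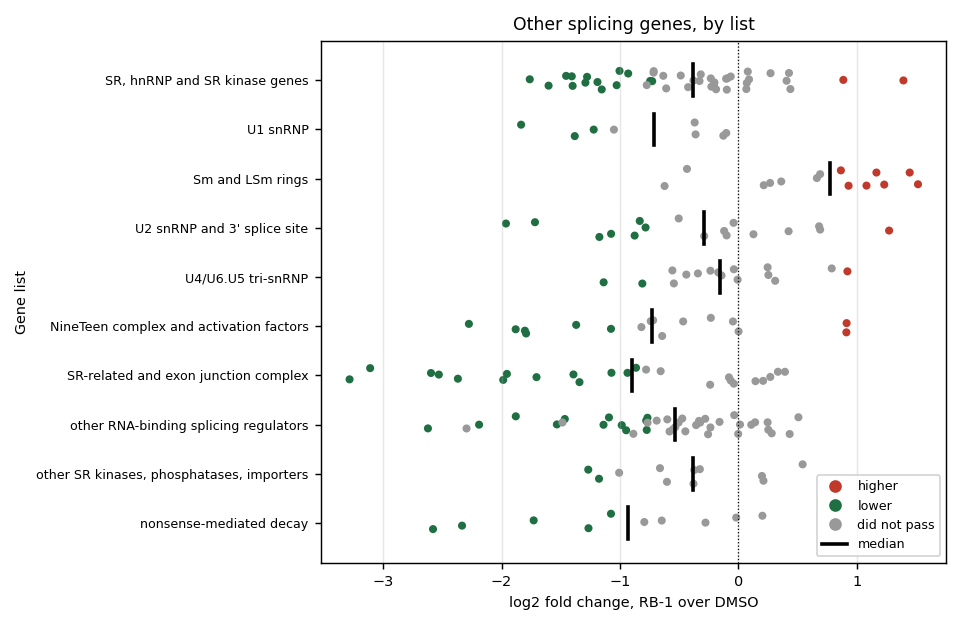
Log2 fold change, RB-1 over DMSO, of each tested gene in the 43 SR, hnRNP and SR kinase genes and in 9 lists of other splicing genes, 1 row per list, with the list's median as a vertical bar. Red marks genes called higher and green those called lower, and the Sm and LSm rings have a median of 0.78 while that of the SR-related list is -0.90.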

How the data were processed

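The values are raw gene counts, deposited by the authors as 1 table with a column for each of the 4 libraries, prepared with an mRNA library kit per the labels' protocols. What aligned and counted the reads is not stated in those labels. The submitters' processing notes list the mouse builds GRCm38 and mm10, although the IDs are human, so coordinates printed here are those of RefSeq GRCh38.p14 only. Symbols matched 20148 of 20263 IDs.

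RB-1 was compared with DMSO in edgeR 4.0.16 (R 4.3.3) over the whole table: filterByExpr, TMM, robust quasi-likelihood fit, two-sided test, Benjamini-Hochberg adjustment over 13612 genes. The common biological coefficient of variation was 0.251 with 2 residual degrees of freedom. A standard error is the log2 fold change divided by the square root of F. CPM is TMM-scaled. The 2 libraries of a group differed beyond sampling noise (chi-square per degree of freedom 128 for RB-1 and 256.6 for DMSO). Lengths, exon overlaps and transcript types came from GENCODE annotation. The fit was tested on simulated data. DESeq2 1.42.0 and limma 3.58.1 served as alternatives.

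Every member is described, with full values for called members, for those with a mean of at least 1000 counts, and for kinases and scaffolds. In each list the 2 genes with the smallest p are named, except 1 that is not reported here. Members, lists and tests were chosen with earlier results of these data known.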

Additional observations from a re-analysis of the deposited data

How the results depend on the processing

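With 2 libraries a group, member standard errors ran from 0.2195 to 0.3538 on the log2 scale, so a change that did not pass may still be present. Of 16 alternatives, most kept the member counts near 2 higher and 14 lower. Library totals alone gave 1400 lower genes overall and 9 lower members. The length and GC offset gave 4 higher members. An adjusted p under 0.01 left 513 higher and 1067 lower genes, 1 higher and 7 lower members, and 3 higher genes in the splicing lists, which had 7 higher with no count filter. Leaving out 1 library at a time gave 522 to 1955 higher and 1065 to 2443 lower genes, 0 to 2 higher and 6 to 14 lower members, and 1 to 15 higher and 29 to 52 lower genes in the splicing lists. Replicate numbers gave no evidence of pairing, with a correlation of same-numbered deviations of -0.114. The fit with the replicate number as a block gave 1741 higher and 2314 lower genes, with 2 higher and 12 lower members. A crossed block, chosen after seeing the data, gave 1970 higher and 2550 lower genes, with 2 higher and 15 lower members, and edgeR's legacy fit, also added then, kept all 16 member calls. The causes of these shifts were not tested.

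No member with a call changed direction in any alternative. Among members that did not pass, signs turned in 26 cases, none of which passed the test. With upper-quartile factors the log2 fold change was 0.015 for CLK2, 0.003375 for HNRNPAB and 0.037 for SRSF2. With library totals it was 0.11 for CLK2, 0.091 for HNRNPAB, 0.015 for HNRNPD, 0.13 for SRSF2 and 0.086 for SRSF3. With 1 library left out at a time it ran from -0.32 to 0.11 for CLK2, from -0.41 to 0.16 for HNRNPAB, from -0.14 to 0.29 for HNRNPC, from -0.080 to 0.27 for HNRNPK, from -0.16 to 0.29 for HNRNPL, from -0.27 to 0.12 for SRSF2 and from -0.29 to 0.070 for SRSF3. With the length and GC offset it was -0.076 for HNRNPC, 0.044 for HNRNPD, 0.088 for HNRNPDL, -0.19 for HNRNPL, 0.15 for HNRNPU, 0.046 for SRPK2, -0.17 for SRSF1, 0.44 for SRSF3, -0.034 for SRSF5 and 0.29 for SRSF6.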
